A study of Mus musculus with 2 samples.

Results

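Tendon and loose connective tissue genes were followed in distal forelimbs of E12.5 mouse embryos, in 1 wild-type library and 1 library homozygous for the HoxD Inv(TpSB1-Itga6) allele. The set holds 10 genes of the 23157 in the deposited table: Scx, Mkx, Tnmd, Fmod, Dcn, Lum, Dpt, Ogn, Postn and Thbs2. They were selected by gene symbol for their role in these tissues, at a time when the ratios of these same libraries were already known, and Dpt was chosen as 1 of the 5 lowest of all genes. Each ratio below is therefore a description. Both libraries came from the strain C57Bl6CBAF1, and the design text gives 3 pairs of forelimbs as the tissue dissected. The inversion turns around a 2.4 Mb segment of chromosome 2. The control sample is labelled wtFL, where the mutant is labelled invDFL, and the deposited values of the control are named wtDFL. It was taken as wild-type distal forelimb, the tissue that the paper's methods name, although the sample label itself does not give the distal part. None of the 10 genes lies on chromosome 2. With 1 library per genotype there is no replicate check, so that genotype, pool, litter, embryo sex and dissection cannot be told apart in any difference given here.

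Tendons form from limb mesenchyme that turns on the basic helix-loop-helix factor scleraxis (Scx), followed by the homeobox factor mohawk (Mkx) and the transmembrane protein tenomodulin (Tnmd). The cells then lay down collagen fibrils, whose diameter and spacing are set in part by small leucine-rich proteoglycans such as decorin (Dcn), lumican (Lum), fibromodulin (Fmod) and osteoglycin (Ogn). Dermatopontin (Dpt), a small matrix protein that binds decorin, is typical of dermis and other loose connective tissue, while periostin (Postn) and thrombospondin 2 (Thbs2) are matricellular proteins that modulate how cells meet the matrix.

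Of the 10 genes, 9 had more normalized reads in the inversion library, as did 46.6% of all genes, and 1, Dpt, had fewer. Dpt went from 79.0 to 12.8 normalized reads and Thbs2 from 118 to 289, and the other 8 genes differed by less than 2-fold. A normalized read is a read count divided by a size factor of its library. Over all transcripts in the deposited table, 9280660 reads were counted in wild type and 9466154 in the inversion. Log2 ratios set the inversion library over the wild-type library with a pseudocount of 1 on both sides, which understates changes at few reads. The 95% interval beside each ratio follows from the exact Clopper-Pearson limits for the fraction of reads from the inversion, and covers counting error between these 2 libraries only. All 10 genes had a mean of at least 10 normalized reads, the filter applied to all genes. Their median log2 ratio was 0.29 (0.33 over the 9 genes without Dpt), beside -0.02 over the 16756 genes that passed the filter. At a 2-fold threshold 1 of the 10 genes was higher, where 3.99% of all genes were, and 1 was lower, where 0.483% of all genes were. The counting interval lay above 0 for 7 of the 10 genes, beside 16.7% of all genes, and below 0 for 1, beside 13.0% of all genes. Together the 10 genes had 3414 wild-type reads against 4190 in the inversion, a log2 ratio of 0.26 (0.19 to 0.33).

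**Figure D1:**
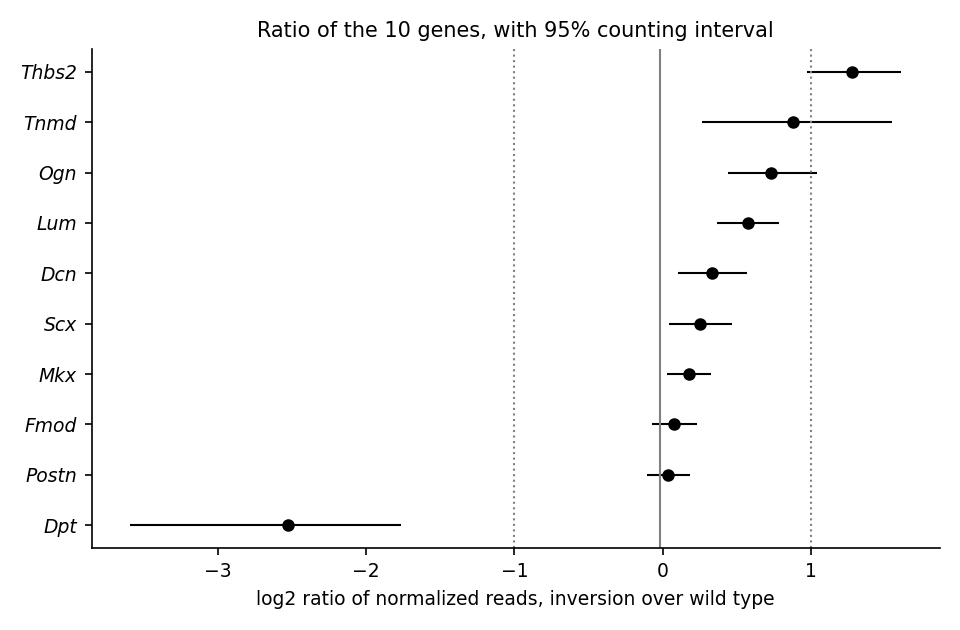
The log2 ratio (inversion over wild type, normalized reads) on the x axis for each of the 10 genes, with bars for the 95% counting interval; the solid line is the median of all genes (-0.02) and the dotted lines mark 2-fold. Dpt stands alone at -2.53, Thbs2 is the highest at 1.28, and the intervals of Fmod and Postn include 0.

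The 2 genes past 2-fold were printed with the bases before their start, as the stretch where the polymerase and its factors assemble. These are the 250 bases upstream of the start of Dpt (GRCm38.p6, chr1:164796413-164796662, plus strand) and of Thbs2 (chr17:14694263-14694512, minus strand), from RefSeq, 5′ to 3′, with each E-box in capitals. An E-box, CANNTG, is the core bound by basic helix-loop-helix factors, the class to which scleraxis belongs, and reads the same on both strands.
Dpt: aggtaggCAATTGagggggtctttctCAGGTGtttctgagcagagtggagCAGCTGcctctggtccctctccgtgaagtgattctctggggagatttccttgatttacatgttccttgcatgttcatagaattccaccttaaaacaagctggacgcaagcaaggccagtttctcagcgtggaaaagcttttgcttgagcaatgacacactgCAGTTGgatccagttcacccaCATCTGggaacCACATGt
Thbs2: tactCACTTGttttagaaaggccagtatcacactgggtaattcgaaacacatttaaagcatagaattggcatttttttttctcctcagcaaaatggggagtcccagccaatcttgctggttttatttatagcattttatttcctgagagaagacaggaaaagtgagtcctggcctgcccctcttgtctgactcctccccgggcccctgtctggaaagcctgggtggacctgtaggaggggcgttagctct

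The Dpt stretch holds 6 E-boxes, 3 of them within the last 50 bases before the RefSeq start, and the Thbs2 stretch holds 1. The RefSeq start of Dpt lies inside the gene as GENCODE places it, so that the last 2 of these E-boxes lie within that gene model, and the RefSeq start of Thbs2 lies outside its GENCODE model. In the whole window of 250 bases before to 50 after the start, Dpt had 7 E-boxes, and 0.177% of the 32851 mouse promoters in the same table had as many. At least 1 E-box was present in 72.3% of all promoters and in 4 of the 7 promoters found for 6 of the genes (Fmod, Dpt, Postn, Ogn, Thbs2 and Tnmd). The window of Ogn held 4 E-boxes and that of Fmod 1, while neither window of Postn nor that of Tnmd held any. A TATA box, searched as TATAAA on both strands, was present in 4 of the 7 windows and in 13.6% of all promoters. In Dpt it begins at base 13 after the RefSeq start. A GC box, searched as GGGCGG on both strands, was in none of the 7 windows and in 35.7% of all promoters. The GC content of the 7 windows ran from 40.0% to 53.0%, beside a median of 52.7% over all promoters. Such matches are letters in a window, and the expression data do not show whether a factor was bound there.

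The tendon regulators Scx and Mkx differed little between the libraries. Scx (chromosome 15, 76457452 to 76459458 on GRCm38), the earliest marker of tendon progenitors, had 341 and 407 normalized reads in wild type and inversion, a log2 ratio of 0.25 (95% interval 0.04 to 0.47). Mkx (chromosome 18, 6934518 to 7004780), needed for the growth of collagen fibrils in tendon, had 715 and 809 normalized reads, a log2 ratio of 0.18 (0.03 to 0.33). Both were slightly higher in the inversion library, by 1.19-fold and 1.13-fold. Scx lies within Bop1, a ribosome biogenesis gene on the opposite strand, which had 1253 and 1160 reads (log2 ratio -0.15). Whether the reads were assigned by strand is not given in the sources used here, so that reads of the overlapping genes cannot be told apart with certainty. Mkx is overlapped on its own strand by AC148004.2, which was not analysed here. Tnmd (chromosome X, 133850980 to 133865577), a later tendon marker that acts downstream of scleraxis, had 33.4 and 62.2 normalized reads. Its log2 ratio of 0.88 rests on 33 and 63 reads, and the interval of 0.27 to 1.55 spans from 1.20-fold to 2.93-fold.

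Of the other transcription factors linked to tendon, 5 of 7 had a log2 ratio above 0, beside 46.6% of all genes, with a median of 0.17. Egr2, a zinc finger factor of tendon matrix genes, had 2 wild-type and 20 inversion reads, a ratio of 9.75 with a log2 interval of 1.24 to 6.43. It was the only one of the 7 past 2-fold, where 3.99% of all genes were 2-fold higher. Eya2, a co-activator of homeobox factors in limb connective tissue, was the lowest, at -0.37 (-0.57 to -0.17) with 482 and 373 normalized reads. TGF-beta signalling maintains tendon progenitors, and its 7 ligand, receptor and Smad3 genes had a median of 0.02. None of the 7 was past 2-fold, the range running from -0.15 for Smad3 to 0.39 for Tgfbr3. The ligand genes of tendon progenitors, Tgfb2 and Tgfb3, were at 0.02 and -0.02.

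The log2 ratios of the proteoglycan genes rose in the order Fmod, Dcn, Lum and Ogn. Only Lum and Ogn had intervals separate from that of Fmod, and the intervals of all other pairs overlapped. Fmod (chromosome 1, 134037254 to 134048277), which binds collagen and helps to shape tendon fibrils, had 676 and 715 normalized reads, a log2 ratio of 0.08 (-0.07 to 0.23), so that counting error alone covers the difference at this depth. Dcn (chromosome 10, 97479609 to 97518143), the proteoglycan that coats collagen fibrils in most connective tissues, had 273 and 345 normalized reads, a log2 ratio of 0.33 (0.10 to 0.57). Lum (chromosome 10, 97565128 to 97572703), which competes with fibromodulin for a site on collagen, had 320 and 477 normalized reads. Its log2 ratio was 0.57 (0.37 to 0.79), an interval separate from that of Fmod and overlapping that of Dcn. Ogn (chromosome 13, 49608046 to 49624501), also called mimecan, had 150 and 250 normalized reads, a log2 ratio of 0.73 (0.44 to 1.04), which is also separate from Fmod. Ogn lies within Cenpp, a centromere gene on the opposite strand with 250 and 226 reads (log2 ratio -0.18).

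These 4 genes share a feature that was not used to choose them, as each sits in a cluster of related proteoglycan genes. On chromosome 10, Dcn and Lum are followed by Kera, the corneal and tendon proteoglycan keratocan, and by Epyc, a proteoglycan of growth plate cartilage, within 203 kb. Kera had 124 and 378 normalized reads, a log2 ratio of 1.61 (1.32 to 1.92), and Epyc had only 9 and 15 reads. The gap between Lum and Kera is 34.2 kb, and their counting intervals do not overlap. On chromosome 13, Ecm2, Aspn and Omd precede Ogn within 120 kb. Aspn, which encodes asporin of periosteum and tendon, had 19 and 76 reads (log2 ratio 1.91, 1.22 to 2.77), and Ecm2 had 54 and 88 (0.66, 0.16 to 1.19). Omd, encoding osteomodulin of bone matrix, had 1 wild-type read and 13 inversion reads, a ratio of 12.7 with a log2 interval of 0.93 to 9.07. On chromosome 1, Optc and Prelp lie on the other strand, at lower coordinates than Fmod. Prelp, a proteoglycan of basement membrane and cartilage, had 153 and 233 normalized reads (log2 ratio 0.60, 0.31 to 0.91), where Fmod, 116 kb away, was at 0.08. In each cluster every gene had more normalized reads in the inversion library, 11 of 11 genes beside 46.6% of all genes that passed the filter. Dcn, Lum, Ogn and Fmod are among these 11 and were chosen with their ratios known. The list that holds the others was also drawn up with earlier results of these data known. The count of 11 is therefore a description. Of the 11, Omd and Optc did not pass the filter and the intervals of Fmod, Epyc and Optc include 0. Summed over a cluster, the log2 ratio was 0.74 for the genes on chromosome 10, 0.91 for those on chromosome 13 and 0.20 for those on chromosome 1.

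**Figure D2:**
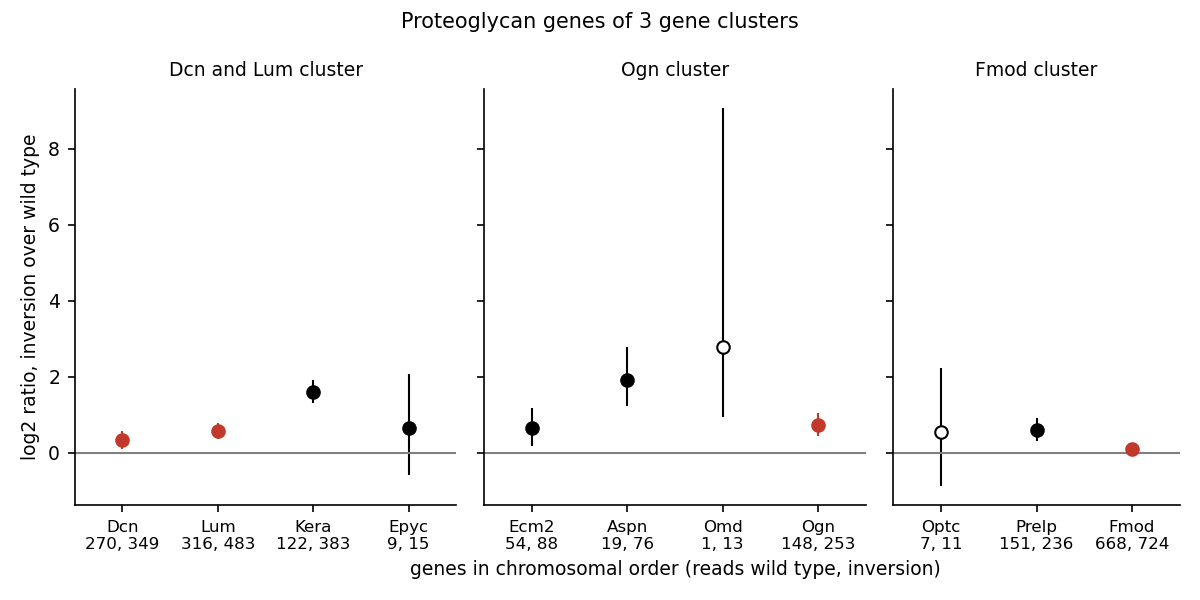
The log2 ratio, inversion over wild type, on the y axis for the proteoglycan genes of 3 clusters in chromosomal order, with bars for the 95% counting interval and the reads of wild type and inversion under each name. Red marks Dcn, Lum, Ogn and Fmod, open circles mark genes under the filter, and all 11 points lie above 0, from 0.08 for Fmod to 2.78 for Omd.

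Of the 13 other genes of the proteoglycan family 11 passed the filter, and their median was 0.66. Of these 11, 10 were above 0, beside 46.6% of all genes. Past 2-fold were 4 (Kera, Aspn, Podn and Podnl1), where 3.99% of all genes were 2-fold higher. None was 2-fold lower, where 0.483% of all genes were. Podn, which encodes podocan, had 55 and 129 reads and its relative Podnl1 had 9 and 39, log2 ratios of 1.18 and 1.97. Bgn, for biglycan, a close relative of decorin, was much more abundant, with 1280 and 1408 normalized reads, and had a log2 ratio of 0.14 (0.03 to 0.25). Chad (0.25) and Nyx (0.87) had intervals that include 0, as did Tsku, an extracellular regulator of signalling, which at -0.06 was the only one below 0. Over the 5 genes of the family with a mean of at least 100, the median was 0.25, so that the size of this value depended on genes with few reads.

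Dpt (chromosome 1, 164796644 to 164824266) went against the rest. It was counted 78 times in wild type but 13 times in the inversion, or 79.0 and 12.8 normalized reads, which is -2.53 on the log2 scale (-3.59 to -1.76). The wild-type level was 6.15-fold higher, with a counting interval of 3.40-fold to 12.1-fold, and 4 of the 16756 genes had a lower ratio. The interval of Dpt was below that of each of the other 9 genes. A single transcript of 4 exons and 1724 nt carried all reads of the gene. An antisense gene, Gm32569, overlaps Dpt in the annotation and was not analysed here. The nearest protein-coding neighbours of Dpt that passed the filter were Atp1b1, 338 kb away, with 100 and 76 reads (log2 ratio -0.43, -0.88 to 0.01), and Sft2d2, 350 kb away, with 1127 and 1060 reads (-0.12). Decorin, the binding partner of dermatopontin in dermis, was higher rather than lower. In bulk tissue, fewer cells of a type and less RNA per cell cannot be told apart.

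Thbs2 (chromosome 17, 14665500 to 14694235), whose product limits angiogenesis and affects collagen fibril assembly in skin and tendon, was counted 117 times in wild type and 293 times in the inversion. The normalized reads of 118 and 289 gave a log2 ratio of 1.28 (0.97 to 1.61), or 2.44-fold, placing it 406 from the highest of the 16756 genes. The counting interval starts just under 2-fold, at 1.96-fold. Its 2 listed transcripts went in opposite directions. The main one, of 22 exons, had 105 and 293 reads. The other, with no type or length in the annotation used here, had 12 wild-type reads and no inversion read. Set against a floor of 3 reads per library it was at least 4.10-fold lower, and the counting interval of its log2 ratio ended at -1.51. That interval does not cover how reads were divided between the 2 transcripts. The main transcript alone gave a log2 ratio of 1.44. The neighbour Smoc2, another matricellular gene 261 kb away, had 1021 and 1145 reads and a log2 ratio of 0.13.

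The other thrombospondins were unequal. Comp, the cartilage oligomeric matrix protein found in tendon and cartilage, had 23 wild-type and 125 inversion reads, a log2 ratio of 2.36 (1.76 to 3.12). Thbs3 had 527 and 839 normalized reads, at 0.67 (0.51 to 0.83). Thbs1, the most abundant of the family with 2177 and 2182 normalized reads, was at 0.00 (-0.08 to 0.09), and Thbs4, of adult tendon and muscle, had 26 and 30 reads. Over these 4 genes the median was 0.42 and 1 was past 2-fold, where 3.99% of all genes were 2-fold higher. Comp is also a cartilage gene, and of the 9 cartilage markers 5 were higher and 4 lower (median 0.07), with summed normalized reads of 19322 and 21719. Matn1, a marker of maturing cartilage, was the highest of them at 1.68. The part of cartilage in the value of Comp was not tested.

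**Figure D3:**
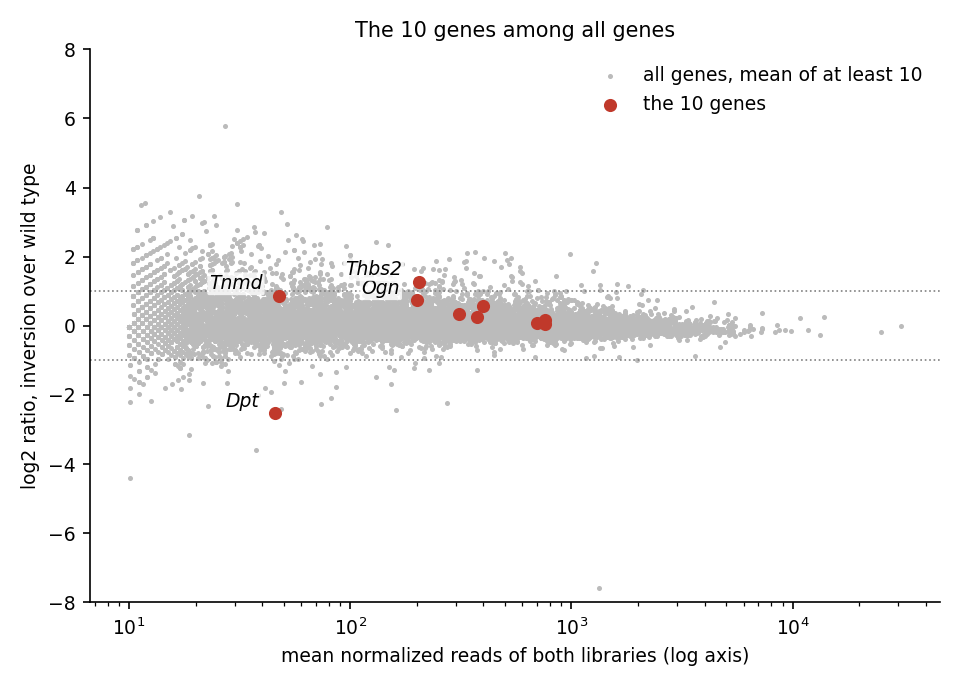
The log2 ratio, inversion over wild type, on the y axis against the mean normalized reads of both libraries on a log x axis, with 1 grey point for each of the 16756 genes that passed the filter and red points for the 10 tendon and connective tissue genes. Dpt lies below nearly all genes of its level, Thbs2 lies just above the dotted line for 2-fold, and the unnamed red points lie between 0.04 and 0.57.

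Postn (chromosome 3, 54361109 to 54391037), a matricellular protein of periosteum, perichondrium and tendon, had 750 and 771 normalized reads over 9 transcripts, a log2 ratio of 0.04 (-0.11 to 0.19). The sum hid a single transcript that differed. A retained-intron transcript, ENSMUST00000145036, had 13 wild-type and 54 inversion reads, a log2 ratio of 1.94 (1.13 to 3.02). It made up 1.75% of the gene's reads in wild type (exact 95% interval 0.937% to 2.98%) and 6.91% in the inversion (5.24% to 8.93%). Without it the other 8 transcripts had 728 and 727 reads. The 4 protein-coding transcripts found in the annotation had 435 and 431 reads, a log2 ratio of -0.05 (-0.24 to 0.15), and the other 3 retained-intron transcripts had 21 and 20, 11 and 11, and 1 and 2 reads. Of all retained-intron transcripts above the filter, 13.6% were higher by 2-fold or more, with a median log2 ratio of 0.20, beside 4.14% of protein-coding transcripts, with a median of -0.03. The Postn transcript thus belongs to a class with more 2-fold differences of this direction in this library.

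**Figure D4:**
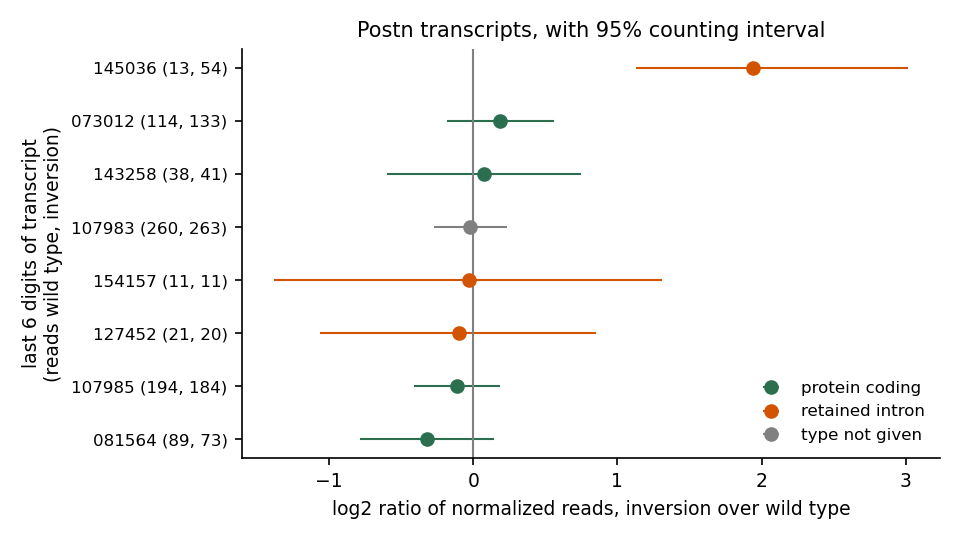
The log2 ratio, inversion over wild type, on the x axis for the 8 Postn transcripts whose mean reached 10 normalized reads, with bars for the 95% counting interval and the reads of each library in brackets. The retained-intron transcript at the top stands at 1.94, and the intervals of the 7 others include 0.

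Dcn was split over 2 transcripts of equal length, the first with 144 and 188 reads and the other with 126 and 161. The share of the first was 53.3% and 53.9%, intervals that overlap. Fmod had 626 and 681 reads in its main transcript and 42 and 43 in a short one. The other 6 genes (Scx, Mkx, Tnmd, Lum, Dpt and Ogn) were listed with 1 transcript each. All 10 genes together had 21 listed transcripts.

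Levels between genes were compared as normalized reads per kb of the longest protein-coding transcript. In wild type Scx was highest, at 330 per kb (exact Poisson 95% interval 295 to 367), followed by Postn at 234, Fmod at 217, Mkx at 196, Dcn at 156, Lum at 131, Ogn at 58.4, Dpt at 45.8, Tnmd at 24.7 and Thbs2 at 20.1. Neighbours in this order overlapped within counting error, except at the steps from Scx to Postn, Mkx to Dcn, Lum to Ogn and Dpt to Tnmd. In the inversion library the first 7 places were the same, with Scx at 393, Postn at 241, Fmod at 229, Mkx at 222, Dcn at 196, Lum at 195 and Ogn at 97.4 per kb. The last 3 places changed, with Thbs2 at 49.1, Tnmd at 46.0 and Dpt at 7.45. There the separate steps were those from Scx to Postn, Lum to Ogn, Ogn to Thbs2 and Tnmd to Dpt.

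**Figure D5:**
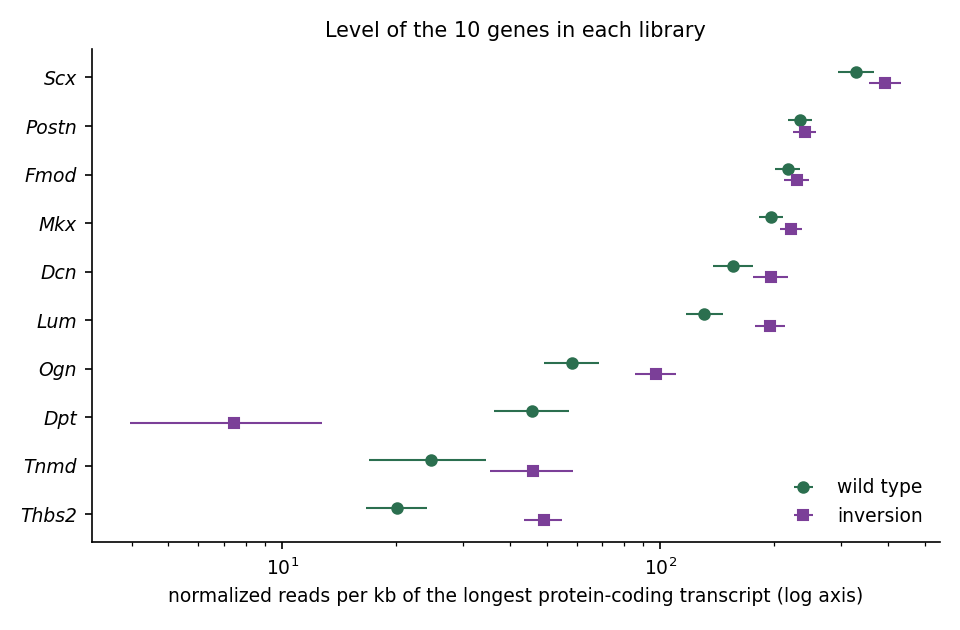
Normalized reads per kb of the longest protein-coding transcript on a log x axis for the 10 genes in wild type (green circles) and inversion (purple squares), with bars for the exact Poisson 95% interval of the reads. Scx is highest in both libraries (330 and 393), and only Dpt lies to the left in the inversion (45.8 and 7.45).

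The fibrils that these proteoglycans coat are made of collagens, and 9 of 10 tendon collagen genes were above 0 (46.6% of all genes were), with a median of 0.30 and none past 2-fold. Col6a3, a chain of the microfibrils around tendon cells, was the highest, at 0.97 (0.86 to 1.07) with 1075 and 2102 normalized reads. Col5a2 was the lowest, at -0.13 with 3803 and 3482 normalized reads. Among the other matricellular genes, 6 of the 8 that passed the filter were above 0 (median 0.13, none past 2-fold). Spp1, for osteopontin, was the highest, at 0.64 (-0.02 to 1.35), and Sparcl1, for hevin, was the lowest, at -0.26 (-0.41 to -0.12).

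Markers of other tissues also differed between the libraries, and their part in the values above was not tested. For the counts that follow, 46.6% of all genes were above 0. Summed normalized reads of the 9 muscle genes were 938 and 1888, 8 of them above 0. Those of the 4 bone and perichondrium genes found were 763 and 1065, 3 of them above 0. Ectoderm (5391 and 4643), endothelium (4320 and 4030) and red cells (24743 and 21086) were lower in the inversion library, all 6 genes of each list being below 0. The 5 macrophage genes (951 and 926) and the 5 Schwann and neural crest genes (1038 and 1097) differed little in sum. Hoxd13, which the inversion moves away from some of its regulatory islands, had 2264 and 1522 reads. Summed normalized reads of the 6 distal limb markers, Hoxd13 among them, were 9126 and 8087, with 4 of them below 0. Hoxd13 alone made up 2292 and 1503 of these normalized reads. For the 5 proximal limb markers the sums were 1389 and 1528, with 4 genes below 0 and Shox2, with 376 and 724 reads, above. The embryo sex markers differed, with 2607 and 13 reads of Xist and summed reads of 826 and 2820 over 4 Y-linked genes, and Tnmd, Bgn and Nyx are X-linked.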

How the data were processed

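Poly(A)-selected, stranded RNA-seq libraries of E12.5 distal forelimbs were sequenced by the authors as single-end reads, 1 per genotype. The authors mapped the reads to NCBIM37 with HTSstation (Bowtie2 per the submitters' processing notes) and deposited 1 table of 64053 transcripts with a signal per library, which is reads divided by a size factor, and 0.5 for no reads. Further deposited columns (the mean signal, a fold change as a ratio, its log2 value, and p-values) hold the authors' own comparison and were not used. Each value above 0.5 was within 0.01 of whole reads (100%), which were recovered.

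Transcripts were summed by symbol and chromosome. The members and all gene lists were chosen with earlier results of these data known. Named were all members, every passing gene of the proteoglycan and thrombospondin lists, and the highest and lowest gene of each other connective tissue list. Tgfb2, Tgfb3, Omd, Optc, Matn1, Hoxd13, Shox2 and neighbouring genes were added for their place beside a result. Adamts2, Adamts3, Adamts14, Bmp1 and Tll1 were added after their values were seen. With 1 library per genotype no test was made, and an exact binomial test, which compares libraries only, served as an alternative. Positions and transcript types were taken from GENCODE M21 (GRCm38, not the mapping build) by identifier, found for 88.1% of transcripts, and promoters from RefSeq (GRCm38.p6). Levels per kb were planned over the longest transcript. For Postn that is the retained-intron one (5223 nt, giving 144 and 148 per kb), so the longest protein-coding one was used throughout. Steps were tested on simulated data. Software was Python 3.11.15 with scipy 1.17.1, pandas 2.3.3, numpy 2.4.6 and, for plots, matplotlib 3.10.9.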

Additional observations from a re-analysis of the deposited data

How the results depend on the processing

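No paired analysis was possible because each genotype was sequenced once. The 60 values of single members under another scaling, pseudocount or choice of transcripts stayed within their counting interval, and each kept its direction except Postn, which was at -0.05 over protein-coding transcripts and at -0.02 in the transcript with the highest mean. Dpt ranged from -2.61 to -2.24, Thbs2 from 1.25 to 1.44, and the members' median from 0.28 to 0.30. Thresholds changed the members' counts. At 1.5-fold 3 of the 10 were higher, beside 1577 of the 16756 genes that passed the filter, and at 4-fold 0 were, beside 113. The exact binomial test with Benjamini-Hochberg adjustment called 5 higher, beside 2068 of all genes. A mean of at least 100 removed Dpt and left 0 lower, beside 12 of all genes at that mean. Over all genes, 668 were higher and 81 lower. Without the filter these were 1992 and 1089, with a mean of at least 100 they were 139 and 12, at 1.5-fold 1577 and 341, at 4-fold 113 and 13, and by the exact binomial test 2068 and 1318. Over protein-coding transcripts they were 412 and 110. Of 167 values for other lists 166 stayed within the median width of their genes' intervals, and bone and perichondrium reached 0.91 over genes with a mean above 100. Depth limits Tnmd, Dpt in the inversion library, Omd, Egr2 and Podnl1.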

Other observations

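Of the 14 fibroblast genes that passed the filter, 7 were above 0, beside 46.6% of all genes, and 7 below (median 0.01, none past 2-fold). Osr1, a zinc finger factor of limb connective tissue cells, was the lowest, with 462 and 284 normalized reads, or -0.70 (-0.92 to -0.48). Dlk1, a transmembrane protein of mesenchymal and muscle precursors, was the highest, with 638 and 1143 normalized reads (0.84, 0.70 to 0.98).

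Of the 15 elastic fibre and microfibril genes 8 were above 0 and 7 below, with a median of 0.03. Eln, for elastin, was the highest at 0.69 (0.49 to 0.89) with 328 and 529 normalized reads, and Ltbp1, for a protein that holds latent TGF-beta in the matrix, was the lowest at -0.26 (-0.34 to -0.19). Of the 21 genes of collagen processing and cross-linking that passed the filter, 13 were above 0 and 8 below, with a median of 0.08. Loxl4 was the highest at 0.83 from 10 and 19 reads (-0.29 to 2.16), and Loxl2, a lysyl oxidase that cross-links collagen, was the lowest at -0.23 (-0.32 to -0.14). The procollagen peptidase genes Adamts2, Adamts3 and Adamts14 were at 0.64, 0.67 and 0.63. Bmp1 and Tll1 of the same list were at 0.32 and 0.08 (-0.27 to 0.43 for Tll1). None of the genes in these lists that passed the filter was past 2-fold, and 46.6% of all genes were above 0. Tll2, of the collagen processing list, did not pass the filter and had 0 wild-type and 9 inversion reads.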
